A study of Mus musculus with 4 samples.

Results

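Genes of lipogenesis and triglyceride (TAG) synthesis were compared in gonadal white adipose tissue (WAT) between mice that lack FSP27 and wild-type mice. The group holds 32 listed genes, named for their role. No signal enters the rule, but the list was drawn up when earlier results of these data were known. On the array, 27 of them had at least 1 probe set annotated with that symbol alone, out of 12393 genes with such a probe set, and these 27 genes had 50 of the 22690 probe sets. They fall into 10 genes of de novo fatty acid synthesis and its regulation and 17 genes of glycerolipid assembly. Agpat6 carries the name Gpat4 in the annotation. Agpat2, Agpat4, Agpat9, Gk and Cds1 had no probe set of a single symbol and were not analysed here.

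Both groups were male C57BL/6J mice aged 3 months, 1 group lacking Fsp27 (the Fsp27 knockout) and 1 wild-type. The gonadal WAT RNA of 5 mice was combined into 1 pool per genotype, and each pool was hybridized to 2 Affymetrix arrays, 4 arrays in all. The 2 arrays of a genotype are therefore duplicates, and their spread, on which each standard error (SE) and p-value rests, is that of hybridizations of 1 pool and not that between mice. Signals are the array software's linear intensities and are compared between arrays for the same probe set only. Cidec, which encodes FSP27, read 8564 and 8949 in the FSP27-deficient duplicates and 20491 and 18255 in the wild-type duplicates, 2.21-fold lower (adjusted p = 5.7e-04). A Cidec signal was thus still read on the FSP27-deficient arrays, and whether its probes lie in the deleted sequence is not stated in the sources at hand, so this level is no full check of the labels. The lower quartile of the signals of an array lay between 52.7 and 64.1.

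In fat cells, cytosolic acetyl-CoA is made from citrate or acetate, carboxylated to malonyl-CoA and built into palmitate by fatty acid synthase, with NADPH supplied in part by malic enzyme. TAG is assembled on glycerol 3-phosphate: acyltransferases add fatty acids to give lysophosphatidate and phosphatidate, lipins remove the phosphate to give diacylglycerol, and diacylglycerol acyltransferases add the last fatty acid. Adipocytes draw glycerol 3-phosphate mostly from glycolysis and from glyceroneogenesis, and store the product in the lipid droplets that FSP27 coats.

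The sequence upstream of the transcription start is shown for those genes past the test that had an entry in the RefSeq promoter set used here (build GRCm38.p6, the 250 bases before an annotated start, 5′ to 3′ on the gene's strand). Gpd1 and Dgat1 had no entry. Capitals mark matches, on either strand, to 5 short motifs: the E-box CACGTG, the CCAAT box CCAAT, the GC box GGGCGG, the nuclear receptor half-site AGGTCA and the sterol regulatory element TCACNCCAC.
Acacb, chr5:114165268-114165517, plus strand: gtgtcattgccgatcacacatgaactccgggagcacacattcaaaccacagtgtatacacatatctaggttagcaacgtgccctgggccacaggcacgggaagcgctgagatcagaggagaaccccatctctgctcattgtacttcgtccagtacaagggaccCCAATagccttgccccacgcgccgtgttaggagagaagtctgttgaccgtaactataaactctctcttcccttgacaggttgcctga
Acly, chr11:100528001-100528250, minus strand: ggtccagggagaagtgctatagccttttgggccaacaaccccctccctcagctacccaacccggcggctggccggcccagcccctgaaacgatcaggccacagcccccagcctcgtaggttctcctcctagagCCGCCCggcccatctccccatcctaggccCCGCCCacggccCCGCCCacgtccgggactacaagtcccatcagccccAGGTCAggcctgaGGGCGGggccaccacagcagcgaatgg
Lpin1, chr12:16610967-16611216, minus strand: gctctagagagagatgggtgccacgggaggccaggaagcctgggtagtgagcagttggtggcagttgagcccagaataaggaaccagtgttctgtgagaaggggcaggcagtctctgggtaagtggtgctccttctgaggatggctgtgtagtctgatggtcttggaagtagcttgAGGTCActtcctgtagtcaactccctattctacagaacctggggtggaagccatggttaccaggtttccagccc
Me1, chr9:86687278-86687527, minus strand: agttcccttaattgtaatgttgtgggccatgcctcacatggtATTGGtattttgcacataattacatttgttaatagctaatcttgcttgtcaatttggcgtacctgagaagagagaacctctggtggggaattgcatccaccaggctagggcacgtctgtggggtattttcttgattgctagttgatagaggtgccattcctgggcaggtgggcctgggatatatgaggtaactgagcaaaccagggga
Me1, chr9:86695915-86696164, minus strand: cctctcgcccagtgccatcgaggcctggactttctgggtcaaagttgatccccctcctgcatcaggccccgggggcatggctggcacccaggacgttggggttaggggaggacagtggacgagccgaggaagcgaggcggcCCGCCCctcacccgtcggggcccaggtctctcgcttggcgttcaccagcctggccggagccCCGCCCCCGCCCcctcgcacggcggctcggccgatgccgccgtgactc
Pnpla3, chr15:84167566-84167815, plus strand: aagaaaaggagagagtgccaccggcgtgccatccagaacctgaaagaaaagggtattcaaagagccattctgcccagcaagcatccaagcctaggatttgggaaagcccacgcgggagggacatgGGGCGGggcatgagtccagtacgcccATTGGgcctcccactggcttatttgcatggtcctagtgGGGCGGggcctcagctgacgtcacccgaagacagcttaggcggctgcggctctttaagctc
The Acly window held 4 GC boxes and 1 half-site, and the second Me1 window held 3 GC boxes. The Acacb window and the first Me1 window held 1 CCAAT box each, the Lpin1 window 1 half-site, and the Pnpla3 window 1 CCAAT box and 2 GC boxes. None of the 6 windows held the E-box or the sterol regulatory element as spelled here. Among the 37 windows of the 25 members with an entry, 19 held a GC box, 15 a CCAAT box, 6 the half-site, 3 the E-box and 1 the sterol regulatory element, and the shares among all 32851 windows of this length were 32.7%, 33.8%, 14.0%, 6.02% and 1.05%. A match of letters is a description of the sequence and not a binding site.

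Of the 27 genes, 26 had a mean signal of at least 100 and were tested, each on its brightest probe set, by limma with Benjamini-Hochberg adjustment over all 8522 genes tested. In FSP27-deficient WAT, 5 members rose (Acacb, Me1, Gpd1, Lpin1 and Dgat1), 2 fell (Acly and Pnpla3) and 19 did not pass the test. With each array centred on its median, 6 rose and 1 fell, and among all 8522 genes 618 rose and 404 fell. The 7 calls are 26.9% of the members tested, while 12.3% of all genes passed, 5.79% higher and 6.51% lower. The 5 rises lay between 2.03-fold and 2.29-fold, and differences between them were not tested. The arrays of the genotypes did not overlap for 20 of the 26, with the FSP27-deficient arrays above for 13 and below for 7, and for all genes this share was 54.1%, 22.7% above and 31.4% below. Me1, Acacb, Gpd1 and Dgat1 passed without each array in turn. Tissue RNA was measured, in which fewer cells of a type and less RNA per cell cannot be told apart. The calls rest on the estimate of the spread that limma shares between genes of like signal: without that trend 0 of the 26 passed, with 6 higher and 3 lower at an unadjusted p under 0.05 and 1 call among all genes, and the adjusted p of the 7 genes then lay between 0.094 and 0.24.

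**Figure D1:**
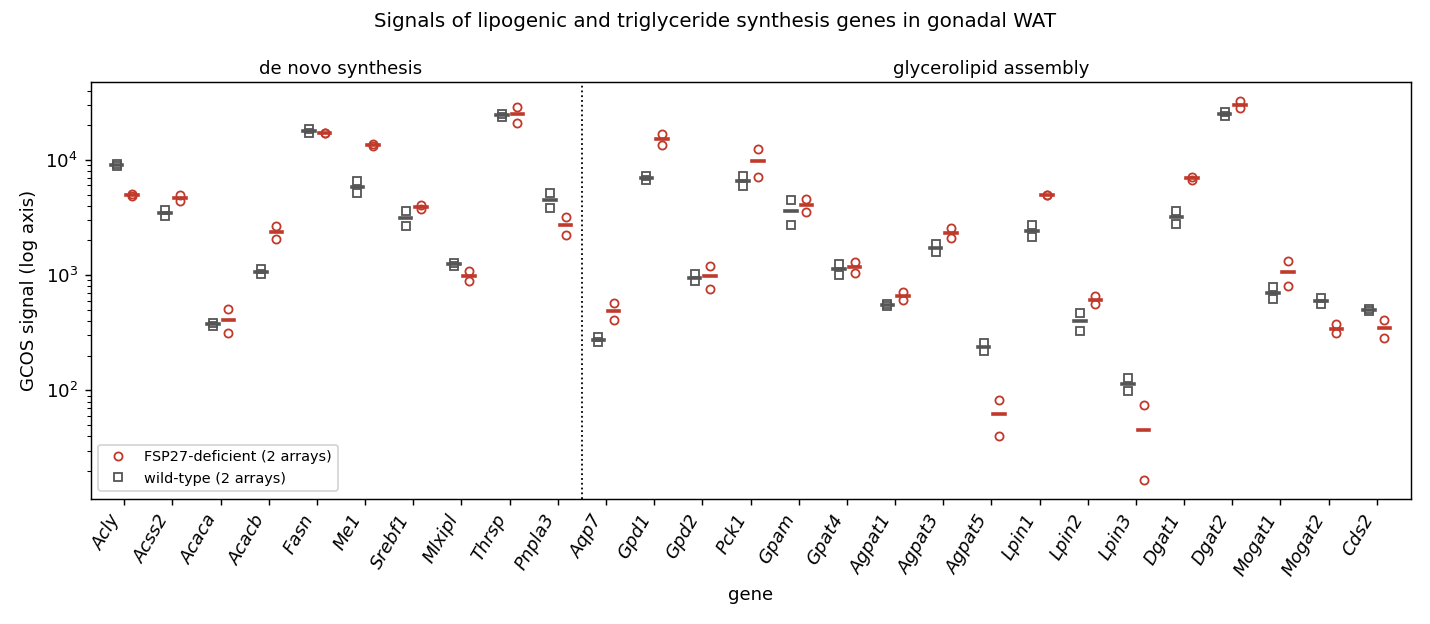
Signals of the 27 members with a probe set (y axis, linear array signal on a log axis, brightest probe set of each gene), as red circles for the 2 FSP27-deficient arrays and grey squares for the 2 wild-type arrays, with a bar at the mean of each. Me1, Acacb, Gpd1, Lpin1 and Dgat1 stand above and Acly and Pnpla3 below their wild-type arrays. The means of Fasn, Thrsp, Gpam and Gpat4 lie close together, though single arrays of Gpam and Thrsp lie apart.

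**Figure D2:**
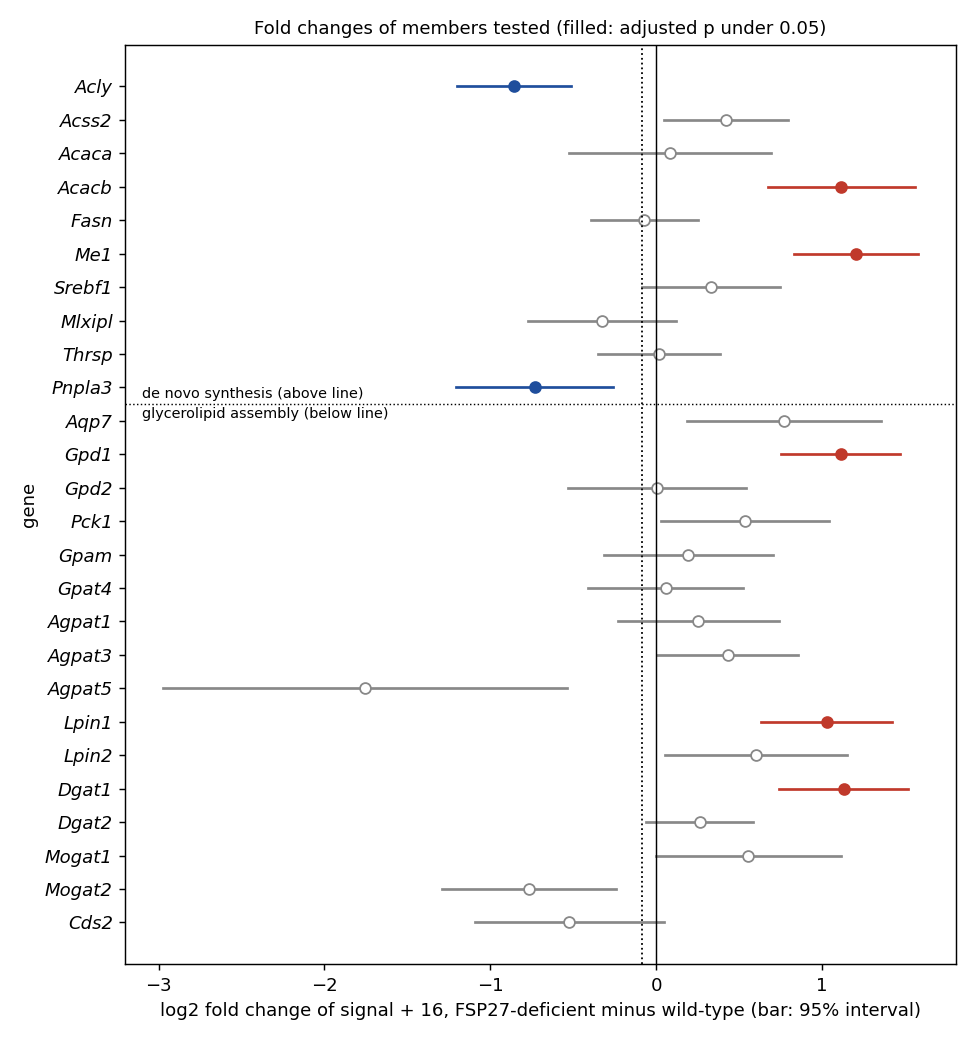
Log2 fold change of each of the 26 members tested (x axis, FSP27-deficient minus wild-type, on log2 of the signal plus 16), with the bar giving the 95% interval from the fit, genes of de novo synthesis above the horizontal dotted line and genes of glycerolipid assembly below it. Filled points passed the test: red for Acacb, Me1, Gpd1, Lpin1 and Dgat1 at 1.03 to 1.20, blue for Acly at -0.86 and Pnpla3 at -0.73. The vertical dotted line is the median of all genes tested, -0.08.

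The enzymes of fatty acid synthesis moved in opposite directions. Me1, the cytosolic malic enzyme that yields NADPH, read 13742 and 13139.9 in the FSP27-deficient duplicates and 5115 and 6627 in the wild-type duplicates. It rose 2.29-fold (log2 fold change 1.20 ± 0.17, SE, adjusted p = 8.9e-04). Acacb, the acetyl-CoA carboxylase of the mitochondrial outer membrane whose malonyl-CoA restrains fatty acid entry into mitochondria, read 2042 and 2682 against 1129.7 and 1018. It rose 2.20-fold (1.11 ± 0.20, adjusted p = 0.0040), with both FSP27-deficient arrays well above both wild-type arrays. Acly, ATP-citrate lyase, which splits citrate into cytosolic acetyl-CoA, read 4854 and 5087 against 9244 and 8796. It fell 1.81-fold (-0.86 ± 0.16, adjusted p = 0.0041), with the arrays of each genotype close together. Without wild-type replicate 1 the adjusted p of Acly was 0.062, and over all its alternatives it ran from 2.4e-04 to 0.24.

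The remaining enzymes of the pathway did not pass. Fasn, fatty acid synthase itself, read 17117 and 16969.8 in the WAT without FSP27 against 17163 and 18683 in wild-type WAT, a log2 difference of -0.071 with a 95% interval from -0.39 to 0.25, and its sign turned, to 0.055, with each array centred on its median. A 2-fold difference in Fasn between the pools lies outside that interval, which does not measure the spread between mice. Acaca, the cytosolic carboxylase that makes malonyl-CoA for Fasn, read 504 and 314 against 384 and 365. Its arrays overlapped, and the interval of its difference was wide, from -0.52 to 0.69. Acss2, which makes cytosolic acetyl-CoA from acetate, read 4395 and 4927 against 3274 and 3685, above the wild-type arrays on both FSP27-deficient arrays but with an adjusted p of 0.14 (0.42 ± 0.17).

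Of the 4 genes grouped as regulators, 1 passed, and it is itself an enzyme. Pnpla3 (adiponutrin), a lipid droplet protein with acyl hydrolase and acyltransferase activity that is induced with lipogenic genes, read 2228 and 3216 against 3831 and 5192. It fell 1.66-fold (-0.73 ± 0.22, adjusted p = 0.047), close to the threshold. Pnpla3 has 1 probe set, so averaging probe sets or testing each on its own moved its adjusted p but not its fold change. The call was lost without FSP27-deficient replicate 1 (log2 fold change -0.47, adjusted p = 0.17), without wild-type replicate 1 (0.062) or 2 (0.37), without the filter on low signals (0.095), with each array centred on its median (0.11), with a gene's probe sets averaged (0.055), and with every probe set tested on its own (0.055). Srebf1, which encodes the sterol regulatory element-binding protein that drives lipogenic genes under insulin, read 3750.1 and 4099.9 against 3623 and 2676 (0.33 ± 0.19, adjusted p = 0.31). Mlxipl, which encodes the carbohydrate response element-binding protein ChREBP, read 889.8 and 1091 against 1206 and 1279 (-0.33 ± 0.20, adjusted p = 0.36). The arrays of the genotypes did not overlap for either factor, Srebf1 lying higher and Mlxipl lower on the FSP27-deficient arrays, and neither passed. Thrsp (Spot 14), a nuclear lipogenic protein, read 21123 and 28644 against 25004 and 23658, and its 2 FSP27-deficient arrays lay on either side of the wild-type arrays.

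In the supply of glycerol 3-phosphate, Gpd1 rose. This cytosolic dehydrogenase, which makes glycerol 3-phosphate from the glycolytic intermediate dihydroxyacetone phosphate, read 16881 and 13472 in the WAT without FSP27 against 7192 and 6756 in wild-type WAT, 2.18-fold higher (1.11 ± 0.17, adjusted p = 0.0012). Gpd2, the mitochondrial enzyme that oxidizes glycerol 3-phosphate back, read 752 and 1202 against 883 and 1017, with overlapping arrays and an interval from -0.53 to 0.54. Pck1, the cytosolic phosphoenolpyruvate carboxykinase of glyceroneogenesis, read 7158 and 12529 against 7237 and 5886 (0.54 ± 0.23, adjusted p = 0.17). A single array held most of that difference: FSP27-deficient replicate 1 lay within the wild-type range and replicate 2 above it, and without replicate 1 the log2 fold change was 0.94 and Pck1 passed (adjusted p = 0.0030). Without replicate 2 it was 0.13 (adjusted p = 0.68), and after quantile normalization 0.25 (0.53). Aqp7, the channel through which glycerol leaves and enters the adipocyte, read 569 and 407 against 289.5 and 263 (0.77 ± 0.27, adjusted p = 0.087). Both FSP27-deficient arrays lay above the wild-type arrays for Aqp7, which passed after quantile normalization (adjusted p = 0.045), with each array centred on its median (0.049) and without FSP27-deficient replicate 2 (0.038). With its probe sets averaged Aqp7 lay at 0.40 (adjusted p = 0.34) and without FSP27-deficient replicate 1 at 0.54 (0.31).

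The acyltransferases that build phosphatidate did not pass the test in either direction. Gpam, the mitochondrial glycerol 3-phosphate acyltransferase, read 3538 and 4539 against 2713 and 4521, and Gpat4, its counterpart of the endoplasmic reticulum, read 1051 and 1311 against 1007 and 1260.2. The arrays overlapped for both genes, with 95% intervals from -0.32 to 0.70 and from -0.41 to 0.53. Of the lysophosphatidate acyltransferases, Agpat1 read 605 and 714 against 559.8 and 538 and Agpat3 2569.5 and 2091 against 1863 and 1581, each with both FSP27-deficient arrays above the wild-type arrays (adjusted p = 0.53 and 0.19). Agpat5, of the same family, pointed the other way at 40.4 and 83.3 against 256 and 219 (-1.76 ± 0.56, adjusted p = 0.061). It had the largest difference of all members tested and the largest SE. Its first FSP27-deficient signal lay below the lower quartile of its array. Agpat5 has 1 probe set, so choosing or averaging probe sets moved its adjusted p but not its fold change. Without FSP27-deficient replicate 2 Agpat5 passed (adjusted p = 0.0096), as it did with a pseudocount of 64 in place of 16 (-1.28, adjusted p = 0.046), with the brightest probe set chosen on each array (0.047) and with a gene's probe sets averaged (0.036). It did not pass without either wild-type array (0.47 and 0.38) or without FSP27-deficient replicate 1 (0.053), and its adjusted p over the alternatives ran from 0.0096 to 0.47.

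Lpin1, the main phosphatidate phosphatase of adipocytes and also a nuclear coactivator, read 4967 and 4946 in the WAT without FSP27 against 2156 and 2724 in wild-type WAT. It rose 2.03-fold (1.03 ± 0.18, adjusted p = 0.0032), and without wild-type replicate 1 its adjusted p was 0.058 (1.0e-04 to 0.28 over its alternatives). Lpin2, a second phosphatase of the family, read 562 and 653 against 468 and 331 (0.60 ± 0.25, adjusted p = 0.16), also with both FSP27-deficient arrays above. Lpin3 had a mean signal under 100 and was not tested. It read 74.2 and 16.8 against 98.6 and 127, too dim for a direction to be read.

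Of the enzymes that make diacylglycerol into TAG, Dgat1 rose and Dgat2 did not pass. Dgat1, an acyltransferase of the endoplasmic reticulum that also re-esterifies fatty acids released by lipolysis, read 7155 and 6690.3 against 2783 and 3576, 2.18-fold higher (1.13 ± 0.18, adjusted p = 0.0018). Dgat2, an unrelated acyltransferase that also works at the lipid droplet and on newly made fatty acids, read 32267 and 28234 against 26118 and 24250.1. The FSP27-deficient arrays lay above the wild-type arrays for Dgat2 too, by 0.26 ± 0.15 (95% interval -0.06 to 0.58, adjusted p = 0.30). A 2-fold difference between the pools lies outside that interval, which rests on the brightest probe set and does not measure the spread between mice. The other Dgat2 probe set read 20559 and 21750 against 15631 and 14768. Its log2 fold change was larger, 0.48, and did not pass when every probe set was tested (limma, adjusted p = 0.080). The monoacylglycerol acyltransferases, which re-form diacylglycerol without phosphatidate, pointed in opposite directions without passing. Mogat1 read 813 and 1321 against 624 and 786 (0.56 ± 0.26, adjusted p = 0.20) and passed without FSP27-deficient replicate 1 (0.90, adjusted p = 0.028), but lay at 0.21 without replicate 2 (adjusted p = 0.64, 0.028 to 0.65 over its alternatives). Mogat2 read 313 and 375 against 560.5 and 629.6 (-0.77 ± 0.24, adjusted p = 0.059) and passed without FSP27-deficient replicate 2 (0.043) and with a gene's probe sets averaged (0.036), with an adjusted p from 0.032 to 0.35 over its alternatives. Mogat2 has 1 probe set, so averaging moved its adjusted p but not its fold change. Mogat2 and Dgat2 belong to 1 gene family and are neighbouring protein-coding genes in RefSeq, and their differences had opposite signs. Cds2, which turns phosphatidate towards CDP-diacylglycerol and so away from TAG, read 283 and 407 against 505 and 484 (-0.52 ± 0.26, adjusted p = 0.24).

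Related members were also set against each other, as the log2 ratio of their signals on each array relative to the mean ratio of the wild-type arrays. The 11 pairs were picked with the values known, so the ratios are a description and were not tested. The ratio of Me1 to Acly was 2.13 and 1.996 in the WAT without FSP27 against -0.22 and 0.22 in wild-type WAT. The shift was 2.06 (SD within genotype 0.23), so Me1 and Acly parted 4.18-fold. Dgat1 gained on Dgat2, with 0.82 and 0.91 against -0.23 and 0.23, and Mogat1 gained on Mogat2, with 1.10 and 1.54 against -0.081 and 0.081. Acacb gained on Acaca by 1.03 and Gpd1 on Gpd2 by 1.11, both with an SD within genotype of 0.52 and no overlap. Agpat3 gained on Agpat5 by 2.19 and Agpat1 on Agpat5 by 2.01, shifts that rest on the low Agpat5 signals. Dgat2 gained on Mogat2 by 1.03 and Srebf1 on Mlxipl by 0.66. The ratios of Lpin1 to Lpin2 and of Gpam to Gpat4 overlapped between the genotypes, at shifts of 0.43 and 0.14. A ratio shows unequal change and not that either gene was unchanged.

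**Figure D3:**
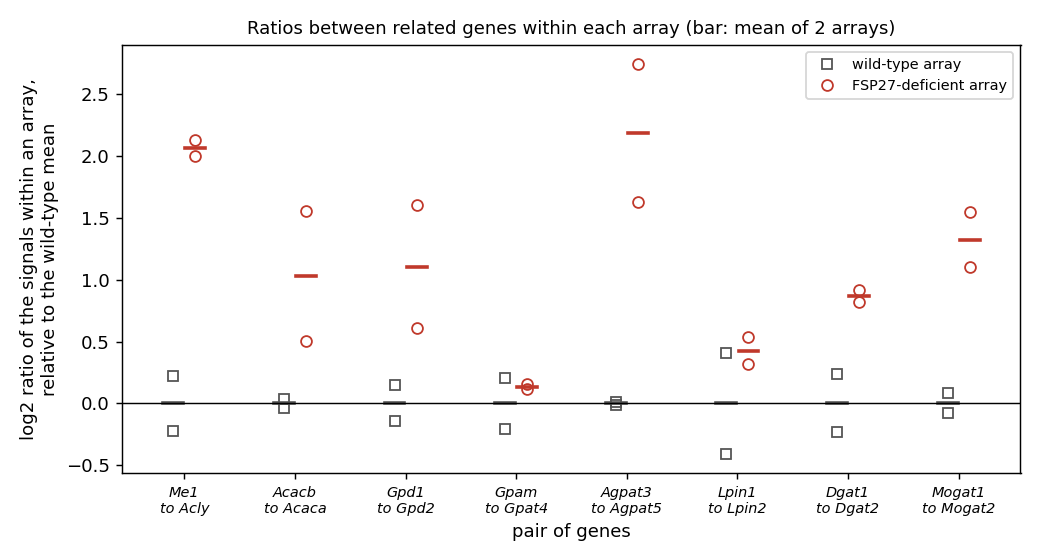
Log2 ratio of the signals of 2 related genes on each array, relative to the mean of the wild-type arrays (y axis), for 8 of the pairs, with red circles for FSP27-deficient arrays, grey squares for wild-type arrays and a bar at each mean of 2 arrays. Me1 to Acly stands near 2.06 on both FSP27-deficient arrays, and Gpam to Gpat4 and Lpin1 to Lpin2 overlap the wild-type arrays.

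Of the tested genes 40.0% passed in de novo synthesis and 18.8% in glycerolipid assembly, beside 12.3% of all genes. Of the 10 genes of de novo synthesis, 2 rose and 2 fell, their median log2 fold change was 0.050, and over the 4 pairings of an FSP27-deficient with a wild-type array it ran from 0.023 to 0.081. Of the 16 tested genes of glycerolipid assembly, 3 rose and 0 fell by limma (2 of them lay lower at an unadjusted p under 0.05), their median was 0.35, and over the array pairs it ran from 0.22 to 0.45. The median of all genes tested was -0.08. The FSP27-deficient arrays lay above the wild-type arrays for 9 of the 16 assembly genes and below for 3, and for de novo synthesis above for 4 and below for 4. The de novo median minus the assembly median was -0.30, between -0.37 and -0.16 over the array pairs, and -0.073 without FSP27-deficient replicate 2. The difference between the branches was not tested. Per array, the mean log2 signal of the assembly genes relative to their mean over the 4 arrays was 0.013 and 0.23 in FSP27-deficient WAT against -0.15 and -0.097 in wild-type WAT, and that of the de novo genes was -0.0046 and 0.12 against -0.078 and -0.040. FSP27-deficient replicate 2 thus lay highest in both branches.

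A second reading came from the 14 members with more than 1 probe set. Over all 50 probe sets of members, 42 were bright enough to test, of which 8 were called higher and 3 lower when every probe set was tested on its own, and of all probe sets tested that way 10.2% passed. The other Me1 probe set read 11737 and 10884 against 3668 and 4073 (log2 fold change 1.54), and the other Lpin1 probe set 2799 and 2597 against 1778 and 1417 (0.76). Both passed, as did a second Gpd1 probe set (1.24), while another Gpd1 probe set lay at 0.28 and did not. For Acly, 3 probe sets passed and were lower, at -0.74, -0.86 and -0.98, and its 2 dim probe sets, with a mean signal under 100, lay at 0.89 and 1.15 and were not tested. By their name suffixes (_x_at and _s_at), some probe sets hold probes that may also match other transcripts. These are the Acly probe sets at -0.98, 0.89 and 1.15, the Dgat1 probe set and the Gpd1 probe set at 0.28. The Aqp7 probe set at -0.23 and the Cds2 probe sets at -0.52 (its brightest) and 0.07 carry such suffixes too. Tested probe sets of opposite sign were seen for Aqp7 (0.77 and -0.23), Thrsp (0.02 and -0.21) and Cds2, whose 5 probe sets lay between -1.37 and 0.07. Acacb, Dgat1 and Pnpla3 were each read by 1 probe set, so they had no second reading, and Pnpla3 did not pass when every probe set was tested (adjusted p = 0.055).

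**Figure D4:**
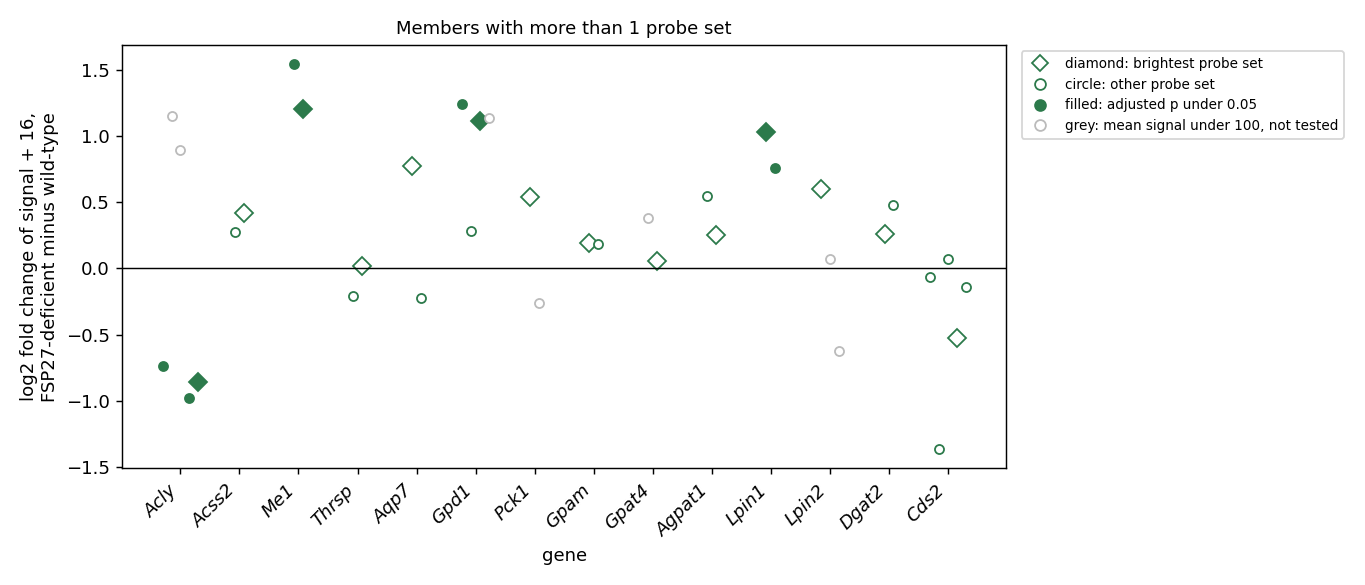
Log2 fold change (y axis, FSP27-deficient minus wild-type, on log2 of the signal plus 16) of every probe set of the 14 members with more than 1, with diamonds for the brightest probe set of a gene, circles for the others, filled symbols for an adjusted p under 0.05 and grey for probe sets too dim to test. The tested probe sets of Acly lie below 0 and those of Me1, Gpd1 and Lpin1 above it, and those of Cds2 spread from -1.37 to 0.07.

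Beyond the group, 16 of 21 listed genes that supply or control fatty acid synthesis were tested. Of these, 2 rose, 3 fell and 11 did not pass (median 0.13). The calls were 31.25% of those tested, beside 12.3% of all genes. The 3 listed genes that fell were the desaturases Scd1 and Scd2 and the elongase Elovl6. Elovl3, an elongase outside this list, read 2818 and 738 against 149 and 150 and rose 11.9-fold (adjusted p = 9.5e-04). Its 2 FSP27-deficient arrays lay far apart, so the size of that rise is uncertain. Elovl6, which elongates palmitate, read 341 and 464 against 1453 and 1812, 4.05-fold lower (adjusted p = 2.5e-04). Scd2 read 2311 and 1835 against 7138 and 8062, 3.67-fold lower (adjusted p = 8.1e-05). Scd1, the main stearoyl-CoA desaturase of adipose tissue, read 30502 and 20149 against 52363 and 63227, 2.28-fold lower (adjusted p = 0.0018, and 0.059 without the filter on low signals). The arrays of the genotypes lay far apart for all 3 genes, each with a fall larger than that of Acly. Nr1h3, which encodes the liver X receptor alpha, a regulator of Srebf1, read 1537 and 1786 against 892 and 953 and rose 1.80-fold (adjusted p = 0.016), a call lost without wild-type replicate 1 (0.14) or 2 (0.086). Mlx, the partner of ChREBP on DNA, read 468 and 876 against 228 and 349 and rose 2.33-fold (adjusted p = 0.036). The Mlx call was lost without the filter on low signals (0.11) and without FSP27-deficient replicate 2 (log2 fold change 0.70, adjusted p = 0.19) or wild-type replicate 1 (0.27).

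The phospholipid branch shares phosphatidate and diacylglycerol with TAG assembly. Of 16 tested genes among 23 listed for it, 2 rose, 1 fell and 13 did not pass (median 0.049). The calls were 18.8% of those tested, beside 12.3% of all genes, and this difference was not tested. Chpt1, which makes phosphatidylcholine from diacylglycerol, read 19697 and 19453 against 10825 and 10960.1 and rose 1.80-fold (adjusted p = 0.0030). Lpcat3, which puts polyunsaturated fatty acids into phosphatidylcholine, read 2413 and 1700.1 against 1174 and 1140.3 and rose 1.78-fold (adjusted p = 0.027), a call lost without FSP27-deficient replicate 1 (adjusted p = 0.13) and without wild-type replicate 1 (0.13) or 2 (0.15). Lpgat1, a lysophospholipid acyltransferase, read 5032 and 4837 against 6793 and 8289.5 and fell 1.53-fold (adjusted p = 0.036). The Lpgat1 call was lost without either wild-type array (0.092 and 0.35), without the filter on low signals (0.079), with centred arrays (0.11) and with a gene's probe sets averaged (0.096). Chpt1 passed without each array in turn.

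Markers of the cells in the pad also differed between the arrays. Beside the counts below, 5.79% of all genes tested rose and 6.51% fell. The adipocyte list was present on all arrays, with summed signals of 242400 to 258589 on the FSP27-deficient arrays and 195911 to 220397 on the wild-type arrays, and of its 8 tested genes 0 rose by limma (4 lay higher at an unadjusted p under 0.05) and 1, Lep, fell. All 4 tested genes of the brown adipocyte list (Cidea, Cox8b, Dio2 and Elovl3) rose, with a summed signal of 19437 to 24068 against 904 to 1236. Cox8b alone read 13491 and 19539 on the FSP27-deficient arrays and so made up most of that sum. Ucp1, the defining gene of the list, read 157 and 31.3 against 18.9 and 12.9 and was too dim to test. Also too dim were Ppara (140 and 132 against 5.25 and 13.9) and Zic1 (24.4 and 62.3 against 70.9 and 22.9). Without the filter on low signals, the log2 fold changes were 1.51 for Ucp1, 2.59 for Ppara and -0.046 for Zic1 (limma, adjusted p = 0.34, 0.045 and 0.98). Of the macrophage list 4 of 6 tested genes fell (summed signal 5213 to 6327 against 13018 to 14645), and of the fibroblast list 5 of 7 (26901 to 31229 against 49170 to 50817). Of the endothelial list 1 of 6 fell (4736 to 5334 against 6378 to 7242) and of the mesothelial list 2 of 4 (1006 to 1410 against 3149 to 3597). Of the liver list 1 of 2 tested genes, Cyp2e1, rose. The other, Alb, pointed the other way without passing, at 187 and 189 against 255 and 231 (-0.34, adjusted p = 0.58). The single tested gene of the skeletal muscle list did not pass. The part of these lists in the results for the members was not tested.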

How the data were processed

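RNA pooled from the gonadal WAT of 5 mice per genotype (45 ug in all) was labelled with biotin and hybridized in duplicate to Affymetrix mouse arrays. The deposited intensities are linear signals that the authors made with the Affymetrix software GCOS, with version and scaling not given in the sources used here, and that scaling sets the overall level of each array. The table holds 22690 probe sets, of which 64 are controls. Samples were grouped by the genotype in their titles.

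Gene names came from the platform annotation, which gives 20380 probe sets 1 symbol, 691 several and 1606 none here, and a gene was read from the probe set of 1 symbol with the highest mean signal. A gene was tested where its mean signal reached 100, which held for 8522 genes. limma 3.58.1 under R 4.3.3 was fitted to log2(signal + 16) for FSP27-deficient minus wild-type arrays, letting the prior spread follow the signal (eBayes, trend), and p-values were adjusted by Benjamini-Hochberg at 0.05. Fold changes are ratios of mean signals, and log2 fold changes are on the log2(signal + 16) scale, which understates the change of dim genes. Residual degrees of freedom were 2, and 12.1 once the prior's were added. An exact two-sided permutation test of 2 against 2 arrays cannot give a p under 0.33. The number of arrays limits the precision. Medians, pair ratios and promoter motifs were computed in Python 3.11.15.

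The members, the lists of neighbouring genes and markers, and the pairs were chosen with earlier results of these data known. Named genes were Cidec, all members, and from the lists for supply and control of fatty acid synthesis and for the phospholipid branch the up to 3 called genes with the largest change each way. Marker lists were those of adipocytes, brown adipocytes, macrophages, fibroblasts, endothelial and mesothelial cells, liver and skeletal muscle. The alternatives tried were a pseudocount of 1 or 64, dropping the signal filter or raising it to 200, quantile normalization, median-centring of the arrays, 3 other ways of reading a gene from its probe sets, a spread without the trend, the methods' t-test, the replicate number as a block, and leaving out each array, when the single array left in a genotype is taken to vary like the others. The steps were tested on simulated data.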

Additional observations from a re-analysis of the deposited data

How the results depend on the processing

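Of the members, 5 were called higher and 2 lower. Without the trend on the signal, 0 and 0 were called (limma, 6 and 3 at an unadjusted p under 0.05), and likewise 0 and 0 by the methods' t-test (5 and 2). Testing every probe set gave 8 higher, and the number lower was 1 without the filter on low signals and 1 with centred arrays. With the replicate number as a block, 7 were called higher and 4 lower, Aqp7, Pck1, Agpat5 and Mogat2 being added to the 7. Calls among all 8522 genes rose as well with the block, from 1048 to 1465. They also changed when an array was left out, so changed counts are not particular to the members. The labels do not say what the numbers share, and deviations of same-numbered arrays correlated at r = 0.065 over 8522 genes. Without each array in turn, 4 to 7 were called higher and 0 to 4 lower. The 0 lower came without wild-type replicate 1 (limma, 3 at an unadjusted p under 0.05).

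The de novo median of 0.050 was 0.18 with centred arrays, 0.017 with probe sets averaged, 0.016 over every probe set and 0.019 to 0.10 without each array. The assembly median of 0.35 was 0.47 with centred arrays and 0.17 to 0.37 without each array, and the difference of medians lay between -0.32 and -0.073 without each array, the last without FSP27-deficient replicate 2. Centring moved the median of all genes from -0.08 to 0.04, so shifts of that size follow from scaling.

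Signs turned only for genes that did not pass. Fasn was 0.055 with centred arrays, and Thrsp was -0.15 after quantile normalization and -0.051 with probe sets averaged. Without each array in turn, Thrsp ran from -0.20 (without FSP27-deficient replicate 2; -0.024 without wild-type replicate 2) to 0.24, Acaca from -0.24 (without FSP27-deficient replicate 1) to 0.41, and Gpd2 from -0.33 (without FSP27-deficient replicate 2; -0.094 without wild-type replicate 1) to 0.34. Gpam ran from -0.17 (without wild-type replicate 1) to 0.56, and Gpat4 from -0.10 (without wild-type replicate 1; -0.099 without FSP27-deficient replicate 2) to 0.22. The cause was not tested. Signals near the lower quartile, as for Agpat5 and Lpin3, limit what can be read.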
